A study of Mus musculus with 6 samples.

Results

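The insulin-like growth factor (IGF) family was examined in mouse bone marrow mesenchymal stromal cells exposed to lipopolysaccharide (LPS), with and without the inflammasome sensor gene Nlrp3. The 10 genes Igf1, Igf2, Igf1r, Igf2r, Igfbp2, Igfbp3, Igfbp4, Igfbp5, Igfbp6 and Igfbp7 were taken by symbol, and each matched 1 row of the 55401 genes in the deposited table. The study compared 2 groups of 3 libraries, all from femoral marrow cells of C57/B6J mice that were grown in a serum-containing medium and given LPS at 3 µg/mL for 24 h. The first group was wild type (WT) and the second carried a knockout of Nlrp3 (NLRP3-/- in the sample titles). Cultures without LPS were not analysed here, so no value below is a response to LPS. The labels give neither the age of the mice nor the design of the knockout allele. They do not say whether replicates were separate animals or cultures, so every p-value rests on the spread among 3 libraries, possibly a technical one, and culture and genotype cannot be told apart where each genotype was 1 culture.

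IGF1 and IGF2 are secreted growth factors that signal through the IGF1 receptor, a tyrosine kinase that feeds the PI3K-AKT and RAS-ERK cascades. IGF2R, the cation-independent mannose-6-phosphate receptor, takes up IGF2 and carries it to lysosomes without signalling as a kinase. The IGF binding proteins (IGFBPs) are secreted carriers that hold the ligands in serum, matrix or at the cell surface, and proteases such as PAPP-A release the ligands by cutting them. In bone and marrow stroma the family is known for regulating osteoblast growth and matrix formation.

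The libraries held 53157580 to 66298470 estimated counts. Nlrp3 stood at 2.76, 1.68 and 1.86 FPKM (fragments per kilobase, a level corrected for transcript length and library size) in WT replicates 1, 2 and 3 and was listed at 0 in the 3 knockout libraries, so every library matched its label. For Nlrp3 an exact two-sided permutation test gave 0.1, below which a design of 3 libraries per genotype cannot go. The tests used limma on genes that reached 1 FPKM in 3 or more libraries, and were run on log2(FPKM + 1), a scale that understates the change of low genes. Among the 12136 genes tested, 10.4% were called higher and 9.20% lower in the knockout libraries at an adjusted p of at most 0.05, 19.6% in all, and for 36.7% the libraries of the genotypes did not overlap. On the estimated counts, edgeR called 16.6% of its tested genes and DESeq2 16.1%. Below, levels are FPKM, errors of levels are SD over 3 libraries, fold changes are knockout minus WT, and adjusted p-values are Benjamini-Hochberg values over all tested genes.

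Of the 10 family members, 9 passed the expression filter, and limma called 2 of these higher (Igfbp2 and Igfbp5) and 5 lower (Igf2r, Igfbp3, Igfbp4, Igfbp6 and Igfbp7). Igf1 and Igf1r were not called, and Igf2 was below the filter. All 6 binding proteins were among the called genes, while 19.6% of all tested genes were called. Igfbp3 passed the filter only through the WT libraries and Igfbp5 only through the knockout libraries, so the counts are a description and not a test of the family. The libraries of the genotypes did not overlap for 8 of the 9 tested members, the exception being Igf1r, against 36.7% of all tested genes. The tested members had a median log2 fold change of -0.43, and all tested genes one of 0.01.

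**Figure D1:**
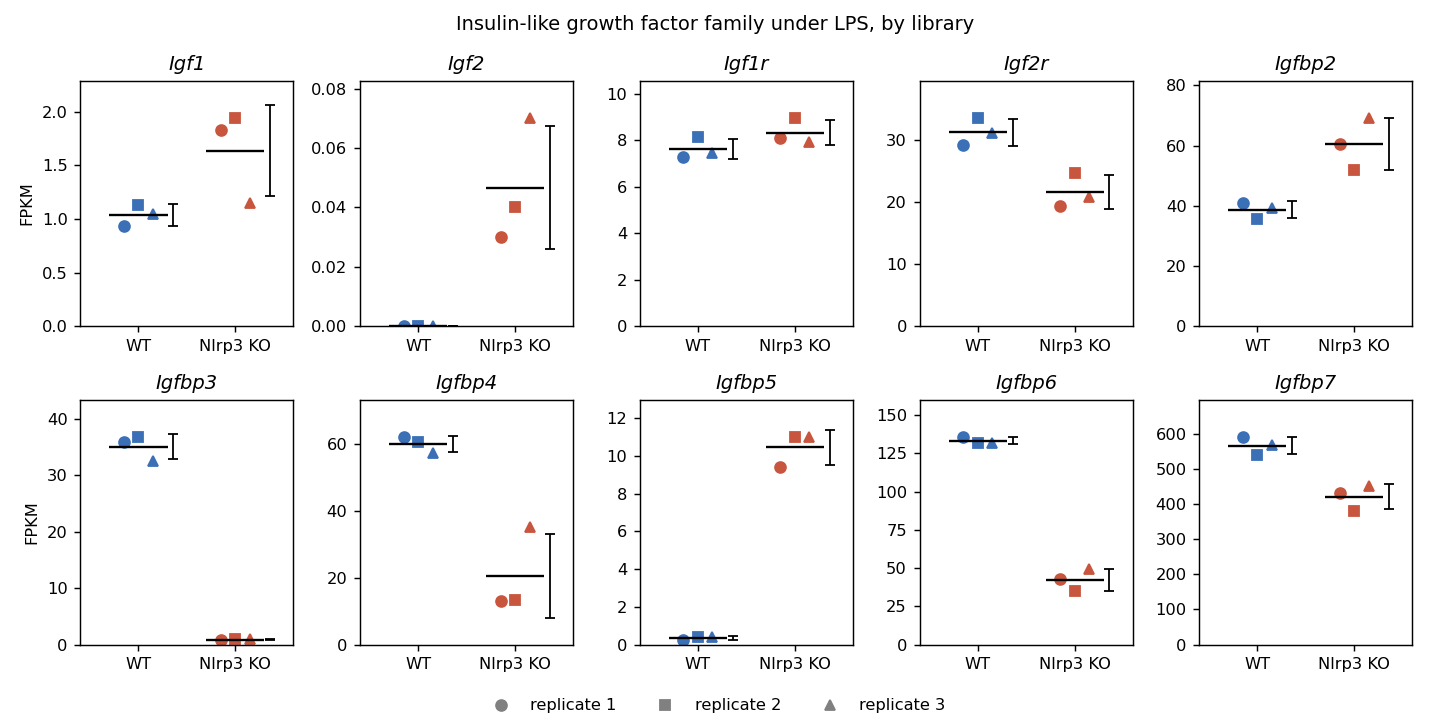
FPKM of the 10 family members in each library (circle, square and triangle for replicates 1, 2 and 3; blue WT, red Nlrp3 knockout; horizontal line, mean; vertical bar, mean ± SD of 3 libraries; each panel has its own axis from 0). Igfbp3 lies between 32.58 and 36.82 in WT and between 0.80 and 0.95 in the knockout libraries, Igfbp5 shows the opposite order, and the third knockout library stands apart in Igfbp4.

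Among the ligands, Igf1 (ENSMUSG00000020053) was low in every library. It stood at 0.93, 1.13 and 1.05 FPKM in the WT libraries and at 1.83, 1.94 and 1.15 in the knockout libraries. Each knockout library was above every WT library, but knockout replicate 3 lay close to the WT values. The mean was 1.04 ± 0.10 in WT and 1.64 ± 0.43 in knockout libraries, and the log2 fold change of 0.36 ± 0.14 (SE) did not pass (limma, adjusted p = 0.124). On the estimated counts the log2 fold change was 0.64 in edgeR (adjusted p = 0.0696) and 0.65 in DESeq2 (adjusted p = 0.0218), so the tools fell on different sides of the threshold. Without knockout replicate 3, limma gave 0.50 with an adjusted p of 0.0119. Igf1 (GRCm38 chromosome 10, positions 87858265 to 87937042, plus strand) overlaps the antisense gene Igf1os by 5117 bases, and Igf1os was listed at 0 in all 6 libraries.

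Macrophages are also a known source of IGF1, and their markers moved with genotype. All 19 tested genes of a list of 24 macrophage markers were called higher in the knockout libraries (limma), against 10.4% of all tested genes. Of these 19, Trem2, named after its values were seen, passed the filter only through the knockout libraries. Of the 24 markers, 23 had a higher mean in the knockout libraries. The summed level of the 24 was 732 to 832 FPKM in WT and 1687 to 1939 in knockout libraries. The most abundant of them were Lyz2, the lysozyme of myeloid cells, at 463 ± 45 and 1145 ± 94 FPKM, and Adgre1, which encodes F4/80, at 44.0 ± 2.7 and 134 ± 2.8. In knockout replicates 1, 2 and 3 the sum was 1892, 1687 and 1939 FPKM, and Igf1 stood at 1.83, 1.94 and 1.15. The part of these cells in the Igf1 values was not tested, and in bulk RNA more cells of a type and more RNA per cell cannot be told apart.

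Igf2, the other ligand (ENSMUSG00000048583), was close to absent from its own row. It had 0 estimated counts in each WT library and 11, 16 and 26 in knockout replicates 1, 2 and 3, which corresponds to 0.03, 0.04 and 0.07 FPKM. A floor of 3 fragments over the WT group was read as 12 estimated counts. Scaled to library totals, the observed Igf2 counts of the knockout libraries were 4.35-fold above this floor. The floor allows for counting error in the WT group only, and not for that of the knockout counts or for other variation. Its row is not the whole of the locus. The gene Gm49394 (GRCm38 chromosome 7, positions 142650769 to 142669942) lies on the same strand, starts upstream of Igf2 (positions 142650766 to 142666816, minus strand) and ends with the same exons: in GENCODE M21, 3 of its 5 exons overlap those of Igf2, and the shared bases make up 62.8% of the exonic bases of Igf2 and 80.5% of its coding bases. Reads from the shared exons could be assigned to either row.

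Gm49394 carried most of the counts of the locus. It had 34, 36 and 8 estimated counts in the WT libraries and 234, 184 and 270 in the knockout libraries. With both rows summed, a choice made after seeing the data, the locus stood at 0.423 ± 0.237 CPM (estimated counts scaled to the library total) in WT and 4.10 ± 0.81 in knockout libraries, a 9.67-fold higher level, and every knockout library was above every WT library. edgeR gave a log2 fold change of 3.24 for the sum (adjusted p = 0.00292) and an adjusted p of 0.0192 for Igf2 alone. The level stayed low: 78 counts (about 19.5 fragments) in the WT group and 741 (about 185 fragments) in the knockout group. Which of the 2 genes the fragments came from cannot be told from these rows.

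**Figure D2:**
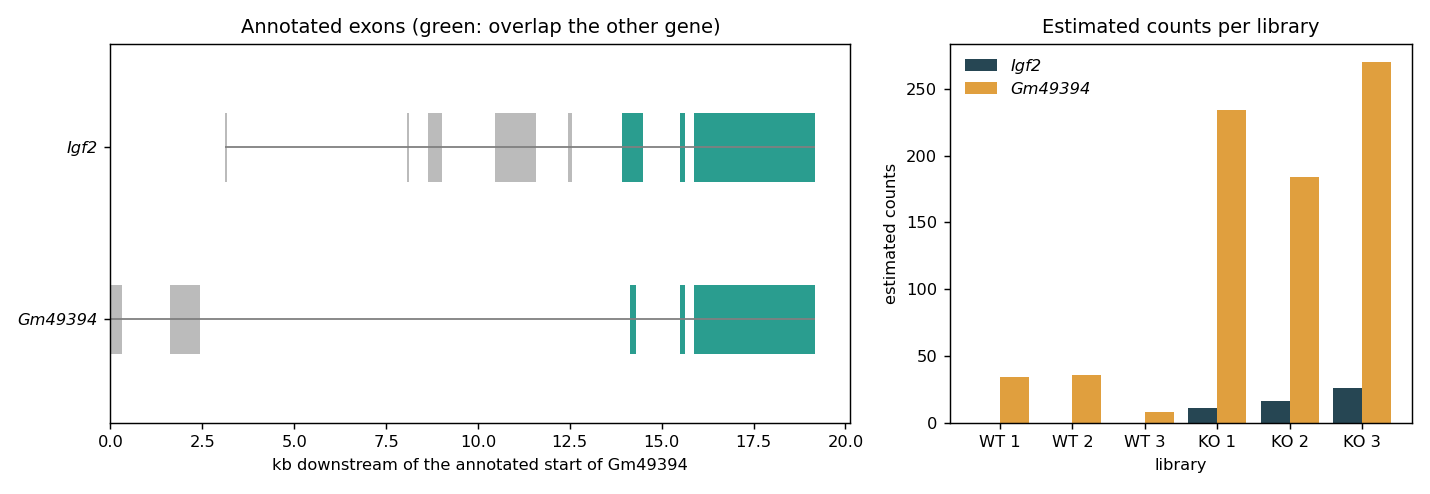
Left, annotated exons of Igf2 (all transcripts) and Gm49394 drawn as distance in kb from the annotated start of Gm49394, with exons that overlap the other gene in green. Right, estimated counts of both rows per library, where Igf2 had 0 in the WT libraries and Gm49394 had 184 to 270 counts in the knockout libraries against 8 to 36 in WT.

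The signalling receptor gene Igf1r (ENSMUSG00000005533, chromosome 7, 67952827 to 68233668, plus strand) differed little. It stood at 7.28, 8.11 and 7.45 FPKM in the WT libraries and at 8.09, 8.93 and 7.93 in the knockout libraries. These ranges overlapped, and the log2 fold change of 0.11 ± 0.08 did not pass (limma, adjusted p = 0.376). Igf2r, the clearance receptor (ENSMUSG00000023830, chromosome 17, 12682406 to 12769664, minus strand), was lower in the knockout libraries. It stood at 29.16, 33.47 and 31.13 in WT and at 19.33, 24.71 and 20.81 in knockout libraries, with no overlap. Its mean fell from 31.3 ± 2.2 to 21.6 ± 2.8, a log2 fold change of -0.52 ± 0.10 (limma, adjusted p = 0.0154), and the adjusted p lay between 0.0530 and 0.0580 without WT replicate 2, WT replicate 3 or knockout replicate 1. Airn, the noncoding RNA antisense to Igf2r, overlaps it by 28354 bases and was between 0.23 and 0.86 FPKM in all libraries. The level of Igf2r relative to Igf1r, per length, was 4.10 ± 0.09 in WT and 2.59 ± 0.19 in knockout libraries.

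Igfbp3 (ENSMUSG00000020427), the main IGF carrier of serum, was the member with the lowest fold change. It stood at 35.84, 36.82 and 32.58 FPKM in the WT libraries and at 0.80, 0.90 and 0.95 in the knockout libraries. The mean was 39.7-fold lower in the knockout libraries (35.1 ± 2.2 against 0.883 ± 0.076), and the log2 fold change was -4.26 ± 0.08 on the log2(FPKM + 1) scale (limma, adjusted p = 1.48e-06) and -5.31 in edgeR. The values were tight within each genotype. The knockout values rested on 178, 184 and 197 estimated counts. The 3 tested genes whose log2 levels followed those of Igfbp3 most closely over the 6 libraries were Irx1, a homeobox factor (Pearson r = 0.9998), Mmp9, a gelatinase that is also known to cut IGFBPs (0.9997), and Tnmd, a tendon marker (0.9996). These correlations mainly restate that each gene was low in the same 3 libraries. Igfbp3 lies on chromosome 11 (positions 7206086 to 7213923, minus strand), 52.3 Mb from Nlrp3, and its neighbour Igfbp1, a liver-type binding protein 3539 bases away, was listed at 0 in all libraries.

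Igfbp5 (ENSMUSG00000026185), a binding protein that attaches to matrix and is made by osteoblasts, was the member with the highest fold change. It stood at 0.25, 0.38 and 0.41 FPKM in the WT libraries and at 9.39, 11 and 11.01 in the knockout libraries. The mean was 30.2-fold higher in the knockout libraries (0.347 ± 0.085 against 10.5 ± 0.93), with a log2 fold change of 3.09 ± 0.10 in limma (adjusted p = 9.56e-06) and 4.88 in edgeR. The WT values rested on 100, 168 and 147 estimated counts. The genes that followed Igfbp5 most closely over the 6 libraries were the transcription factors Gata6 (r = 0.9994), Hoxa11 (0.9992) and Six2 (0.9990). All had mean levels below 0.1 FPKM in WT and of 1.56 to 3.93 in knockout libraries. Like Igfbp5, they passed the filter only through the knockout libraries. These correlations therefore mainly restate that each gene was low in the same WT libraries.

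Igfbp2 (ENSMUSG00000039323), a binding protein that can also bind integrins, is the neighbour of Igfbp5. The genes face each other on chromosome 1, with Igfbp2 on the plus strand (72824503 to 72852474) and Igfbp5 on the minus strand (72857932 to 72874884), and their 3′ ends are 5457 bases apart. Igfbp2 stood at 41.05, 35.56 and 39.27 FPKM in the WT libraries and at 60.53, 51.81 and 69.02 in the knockout libraries. It rose from 38.6 ± 2.8 to 60.5 ± 8.6, a 1.57-fold higher mean and a log2 fold change of 0.63 ± 0.12 (limma, adjusted p = 0.0110). Both neighbours were thus called higher, by very different factors and from very different WT levels. Beyond Igfbp2 the next gene, the ribosomal protein gene Rpl37a, lies 110689 bases away, and on the far side of Igfbp5 the next gene lies 109959 bases away.

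The upstream sequences of the members that moved most, of the neighbour Igfbp2 and of Igfbp4, whose knockout values were widely spread, are shown for their sequence context. The fold changes are values of whole genes and are not assigned to a start site. They are the 250 bases before the RefSeq start of each gene (build GRCm38.p6, read 5′ to 3′ on the gene's strand), and for Igfbp2 the first of 2 starts. Capitals mark matches, on either strand, to the TATA box (TATAAA), the CCAAT box (CCAAT), the GC box (GGGCGG), the AP-1 site (TGANTCA) or the NF-κB consensus.
Igfbp3, chr11:7213924-7214173, minus strand: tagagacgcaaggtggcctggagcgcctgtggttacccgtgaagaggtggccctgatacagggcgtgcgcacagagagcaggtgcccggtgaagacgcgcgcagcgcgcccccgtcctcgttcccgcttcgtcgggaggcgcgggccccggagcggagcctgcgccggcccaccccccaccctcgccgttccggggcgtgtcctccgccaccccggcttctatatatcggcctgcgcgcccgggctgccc
Igfbp5, chr1:72874866-72875115, minus strand: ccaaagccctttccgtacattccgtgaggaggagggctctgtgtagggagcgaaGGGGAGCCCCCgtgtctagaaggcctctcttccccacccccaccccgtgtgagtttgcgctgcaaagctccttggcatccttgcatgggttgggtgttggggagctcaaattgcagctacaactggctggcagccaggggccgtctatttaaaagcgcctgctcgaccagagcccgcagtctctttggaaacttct
Igfbp2, chr1:72824230-72824479, plus strand: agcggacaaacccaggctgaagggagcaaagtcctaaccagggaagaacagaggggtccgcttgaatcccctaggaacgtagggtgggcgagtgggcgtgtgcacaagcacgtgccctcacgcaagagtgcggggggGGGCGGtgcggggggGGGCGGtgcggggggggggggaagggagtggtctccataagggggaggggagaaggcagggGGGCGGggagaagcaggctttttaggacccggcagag
Igfbp4, chr11:99040994-99041243, plus strand: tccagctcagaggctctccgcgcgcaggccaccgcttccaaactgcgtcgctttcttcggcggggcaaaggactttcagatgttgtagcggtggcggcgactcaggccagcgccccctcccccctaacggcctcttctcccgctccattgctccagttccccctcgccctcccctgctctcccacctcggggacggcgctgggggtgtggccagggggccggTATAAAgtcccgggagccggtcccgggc

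The Igfbp5 window holds 2 overlapping matches to the NF-κB consensus, which 7.25% of the 32851 RefSeq windows of this length match at least once. The Igfbp2 window holds 3 GC boxes (present in 32.7% of windows) and the Igfbp4 window a TATA box (12.4%) that starts 28 bases before the start site. The Igfbp3 window has none of these letters, and 73.2% of its bases are G or C, against a median of 52.4% over all windows. A match is a description of letters and not a bound site, and its absence says only that these letters are not in this window.

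Igfbp4 (ENSMUSG00000017493, chromosome 11, 99041244 to 99054392, plus strand), a carrier made by stromal cells and cut by PAPP-A, showed the widest spread. Like Igfbp3 it shares a chromosome with Nlrp3, at a distance of 39.5 Mb. It stood at 62.07, 60.51 and 57.36 FPKM in the WT libraries and at 13.12, 13.27 and 35.04 in the knockout libraries. Knockout replicate 3 lay between the other knockout libraries and the WT libraries, without overlapping WT. On the log2 scale the SD of the knockout libraries was 0.78, larger than that of 98.8% of the tested genes, whereas the SD of the WT libraries was 0.06. The mean fell from 60.0 ± 2.4 to 20.5 ± 12.6, and the log2 fold change was -1.65 ± 0.36 (limma, adjusted p = 0.0196). Without knockout replicate 3 it was -2.10 (adjusted p = 8.69e-05), and without any other single library it did not pass (adjusted p between 0.0595 and 0.0664).

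Knockout replicate 3 differed in other measures as well. Its share of mitochondrially encoded counts was 1.77%, against 2.90% and 3.18% in the other knockout libraries and 2.31% to 2.47% in WT. Top2a, the cell cycle topoisomerase that is the next gene to Igfbp4 at 17054 bases, stood at 19.63 FPKM there against 28.40 and 32.50 in knockout replicates 1 and 2 and 23.73 to 25.68 in WT. For 6 of the 9 tested members (Igf1, Igf1r, Igfbp3, Igfbp4, Igfbp6 and Igfbp7) this library was the knockout library nearest to the WT mean, as it was for 37.9% of all tested genes. The part of these differences in the Igfbp4 values was not tested.

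Igfbp6 (ENSMUSG00000023046, chromosome 15, 102144362 to 102149511, plus strand), a binding protein with a preference for IGF2, stood at 135.79, 132.02 and 131.68 FPKM in the WT libraries and at 42.56, 34.89 and 49.24 in the knockout libraries. It fell from 133 ± 2.3 to 42.2 ± 7.2, a 3.15-fold lower mean with a log2 fold change of -1.65 ± 0.12 (limma, adjusted p = 0.000246). Its log2 fold change was thus close to that of Igfbp4, with knockout libraries that lay much closer together. Igfbp7 (ENSMUSG00000036256, chromosome 5, 77349240 to 77408041, minus strand), a matrix protein of vessels and stroma with low affinity for IGFs, was the most abundant member in both genotypes. It stood at 591.62, 541.02 and 568.33 in WT and at 431.46, 381.78 and 450.57 in knockout libraries, and fell from 567 ± 25 to 421 ± 36 (-0.43 ± 0.10, limma, adjusted p = 0.0244). That call was lost without WT replicate 1, 2 or 3 or knockout replicate 1 (adjusted p between 0.0601 and 0.107). Igfbp7 shares 85 bases with the end of Polr2b on the other strand, which stood at 16.15 to 18.91 FPKM in all libraries.

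**Figure D3:**
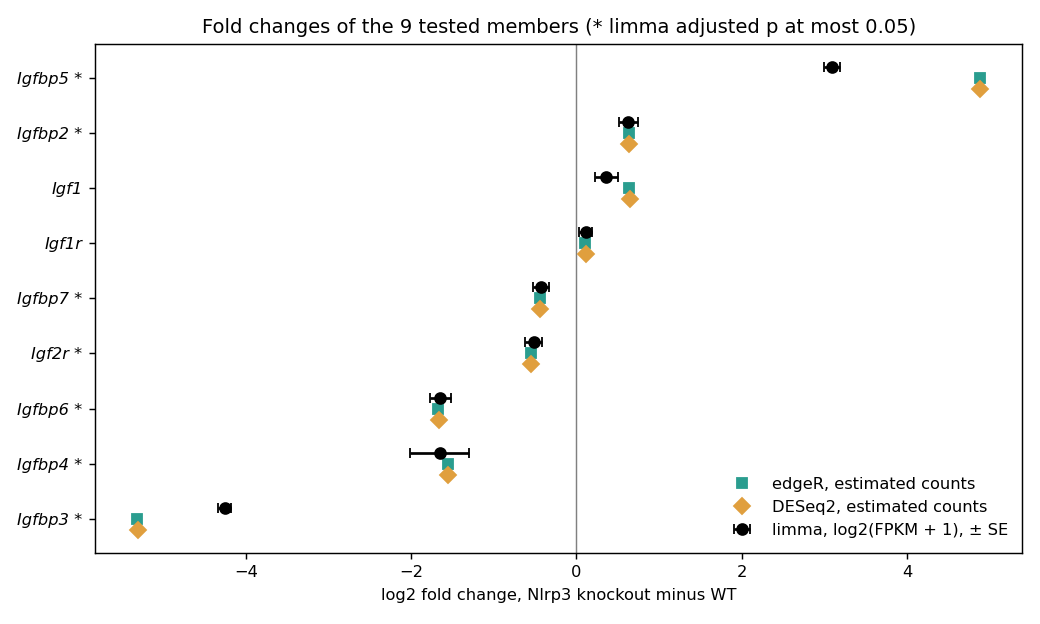
Log2 fold changes (knockout minus WT) of the 9 tested members from limma on log2(FPKM + 1) with its SE, and from edgeR and DESeq2 on the estimated counts; an asterisk marks a limma adjusted p of at most 0.05. The tools differ mainly for the genes with low levels, such as Igfbp5 with 3.09 in limma and 4.88 in edgeR.

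Markers of mesenchymal stromal cells, which are known to make IGFBPs, also differed between the genotypes. Of 16 tested, 4 were called higher and 10 lower in the knockout libraries (limma), against 10.4% and 9.20% of all tested genes. The 4 called higher, with WT and knockout means, were Nes (11.1 and 33.7 FPKM), Cxcl12 (46.9 and 59.7), Twist1 (11.6 and 19.3) and Nt5e (0.183 and 2.35). They were named after their values were seen, and Nt5e passed the filter only through the knockout libraries. The summed level of the list was 3107 to 3426 FPKM in WT and 2131 to 2342 in knockout libraries. The most abundant, the type I collagen genes Col1a1 and Col1a2, made up most of this sum in both genotypes. They stood at 1726 ± 86 and 854 ± 28 in WT and at 1301 ± 75 and 657 ± 45 in knockout libraries. Lymphoid, endothelial and adipocyte markers were low. The lymphoid list summed to at most 0.16 FPKM in any library, with Cd79b, Ms4a1, Cd3e and Cd3d among those at 0. The endothelial list summed to at most 0.69, and the adipocyte list to at most 2.31, with Adipoq, Plin1, Lep and Cidec at 0. The granulocyte list summed to at most 12.13, with Camp and S100a8 highest and Ngp and Elane at 0. In the erythroid and megakaryocyte list the platelet chemokines Pf4 and Ppbp made up most of a sum of 57.4 to 67.4 in WT and 144 to 166 in knockout libraries, while Gp9 was at 0. In the osteoblast list of 8 genes, 3 were tested, 2 called higher and 1 lower (limma), against 10.4% and 9.20% of all tested genes. Of the 8 means, 6 were higher in the knockout libraries. Of these 6, Bglap2, Ibsp and Dmp1 were close to absent, at 0 in WT and at 0.053, 0.037 and 0.013 FPKM in knockout libraries. Bglap was as low and did not rise, at 0.063 in WT and 0.053 in knockout libraries. They were named after their values were seen. Spp1 fell from 1784 ± 109 to 775 ± 124 (limma, adjusted p = 0.0018), and Runx2, the osteoblast transcription factor, rose from 3.29 ± 0.15 to 5.69 ± 0.47 (limma, adjusted p = 0.00224). Alpl, the alkaline phosphatase of osteoblasts, rose from 0.133 ± 0.032 to 1.42 ± 0.08 (limma, adjusted p = 0.000216), and Sp7, an osteoblast transcription factor below the filter, stood at 0.007 and 0.337, both named after their values were seen. Alpl passed the filter only through the knockout libraries, so its call is a description. The part of these differences in the binding protein values was not tested.

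The order of the members by FPKM, a level per length, differed between the genotypes. In WT it ran Igfbp7, Igfbp6, Igfbp4, Igfbp2, Igfbp3, Igf2r, Igf1r, Igf1, Igfbp5 and Igf2. The ranges of Igfbp2 and Igfbp3 overlapped, as did those of Igfbp3 and Igf2r, and all other neighbours in this order were separated. In the knockout libraries it ran Igfbp7, Igfbp2, Igfbp6, Igf2r, Igfbp4, Igfbp5, Igf1r, Igf1, Igfbp3 and Igf2, and the range of Igfbp4, from 13.12 to 35.04, overlapped those of Igf2r and Igfbp6. Igfbp3 ranked 5 in WT and 9 in knockout libraries, and Igfbp5 ranked 9 and 6.

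The summed level of the 6 binding proteins was lower in the knockout libraries. It was 867, 806 and 830 FPKM in WT replicates 1, 2 and 3 and 558, 494 and 616 in the knockout libraries, a ratio of means of 0.666, and without Igfbp7 it was 267 ± 7.0 and 135 ± 28. These sums, and the shares that follow, are descriptions over members chosen with earlier results known and carry no test. Igfbp7 made up 68.0% ± 0.75 of the sum in WT and 75.9% ± 2.4 in knockout libraries. Igfbp6 went from 16% ± 0.36 to 7.56% ± 0.47, Igfbp4 from 7.19% ± 0.30 to 3.58% ± 1.84, and Igfbp3 from 4.21% ± 0.33 to 0.160% ± 0.020. Igfbp2 made up 4.63% ± 0.19 and 10.9% ± 0.36, and Igfbp5 0.0418% ± 0.0113 and 1.9% ± 0.29. The shares depend on the unit. On CPM, which is not corrected for length, Igfbp4 made up 20.7% in WT and 10.6% in knockout libraries and stood above Igfbp6, at 11.6% and 5.68%, in both genotypes. Igfbp3 then made up 8.57% and 0.342%, and Igfbp5 0.165% and 7.72%. The level of Igf1 amounted to 0.125% ± 0.016 of the binding protein sum in WT and 0.303% ± 0.105 in knockout libraries.

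**Figure D4:**
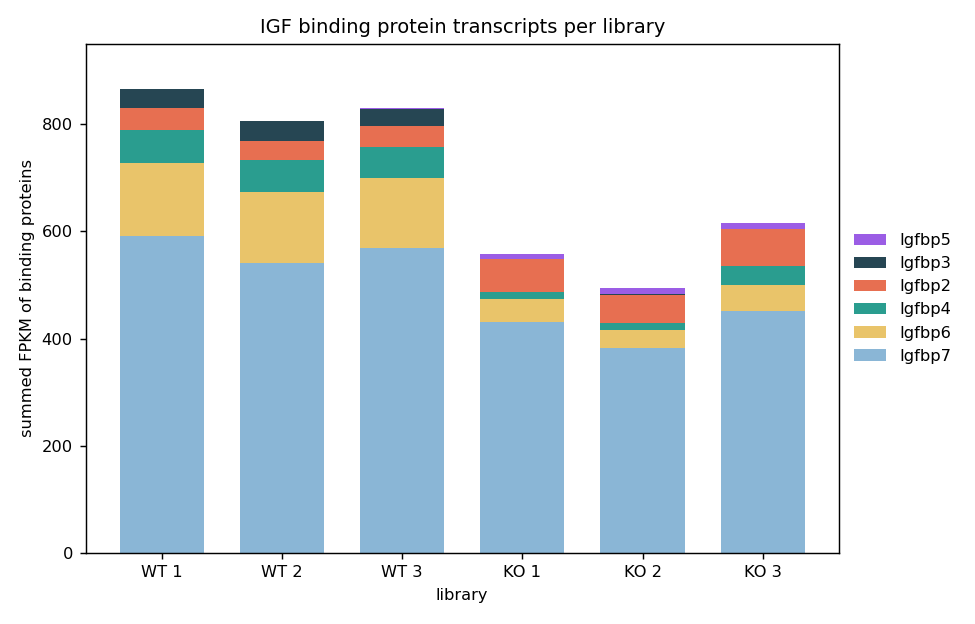
Summed FPKM of the 6 binding proteins in each library (3 WT, 3 Nlrp3 knockout), stacked by gene. The WT libraries sum to 806 to 867 and the knockout libraries to 494 to 616, with Igfbp7 as the largest part of each bar and Igfbp2 as the second largest in the knockout libraries.

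The other genes of the pathway were described from 8 lists with 98 genes, of which 78 were tested, 13 called higher and 10 lower (limma). That is 29.5% called, against 19.6% of all tested genes, and the median log2 fold change was 0.04. In the RAS-ERK arm limma called 0 of 10 genes, with 2 at an unadjusted p under 0.05, while edgeR called 0 and DESeq2 1. Of 26 genes of the PI3K-AKT-mTOR arm, 2 were called higher and 2 lower, all by less than 1 on the log2 scale. The 3 largest of these were Inpp5d, a phosphatase of blood cells that opposes PI3K, from 0.917 to 1.85 FPKM (0.57), Foxo4, a transcription factor restrained by AKT, from 10.4 to 7.49 (-0.43), and the PI3K subunit Pik3cb, from 2.19 to 3.26 (0.41). Inpp5d passed the filter only through the knockout libraries.

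The adaptors showed 2 called higher and 2 lower of 11 tested (limma), against 10.4% and 9.20% of all tested genes. Grb10, an imprinted adaptor that binds the insulin and IGF1 receptors and dampens their signal, stood at 15.94, 15.49 and 15.31 FPKM in the WT libraries and at 38.90, 38.68 and 37.12 in the knockout libraries. It rose by 1.24 ± 0.06 on the log2 scale (limma, adjusted p = 3.57e-05). Its relative Grb14 fell from 8.60 ± 0.83 to 5.13 ± 0.40 (-0.65, limma, adjusted p = 0.00380). Of the other insulin and IGF ligands, receptors and carriers only the insulin receptor gene Insr, named after its values were seen, was tested, and it stood at 1.81 ± 1.07 and 1.11 ± 0.14 (limma, adjusted p = 0.388). Ins1, Ins2, Igfbp1 and Igfbpl1 were listed at 0 in all libraries.

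Proteases that cut IGFBPs, and their inhibitors, moved in both directions. Of 12 tested, 3 were called higher and 4 lower (limma), against 10.4% and 9.20% of all tested genes. Pappa, which encodes the protease PAPP-A that cuts IGFBP4 and IGFBP5, stood at 0.90, 1.23 and 1.11 FPKM in WT and at 4.40, 5.79 and 3.66 in the knockout libraries. It rose by 1.42 ± 0.15 on the log2 scale (limma, adjusted p = 0.0010), in the same libraries in which Igfbp4 was lower and Igfbp5 higher. Its relative Pappa2 and its inhibitor Stc1 were below the filter, at 0.037 and 0.453 and at 1.08 and 0.377 in WT and knockout libraries, both named after their values were seen. Stc2, a more abundant relative of Stc1 in this list, passed the filter but was not called (limma, adjusted p = 0.588). Its WT mean was 3.15 FPKM against a knockout mean of 2.88, the ranges overlapped, and it too was named with its values known. The stromelysin Mmp3 rose from 23.5 ± 0.78 to 53 ± 1.3 (1.14, limma, adjusted p = 5.19e-05). Mmp9 fell from 139 to 9.15 (-3.78), and the complement protease C1s1, which varied among the WT libraries from 37.79 to 76.02, fell from 61.8 ± 20.9 to 21.8 ± 10.7 (-1.49, limma, adjusted p = 0.0366).

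RNA-binding proteins named for Igf2 mRNA moved in both directions. Of 4 tested regulators of Igf2 RNA, 2 were called lower (limma), against 9.20% of all tested genes. Igf2bp3 stood at 2.37, 2.72 and 2.92 FPKM in WT and at 0.38, 0.15 and 0.20 in knockout libraries (-1.56 ± 0.11, limma, adjusted p = 0.00017), and passed the filter only through the WT libraries. Igf2bp2 fell from 12.6 ± 1.2 to 6.40 ± 0.06 (-0.88, limma, adjusted p = 0.000571). The third of these proteins, Igf2bp1, named after its values were seen, was below the filter at 0.02, 0.04 and 0 FPKM in WT and 0.39, 0.41 and 0.28 in knockout libraries, and edgeR called it higher (log2 fold change 4.09, adjusted p = 0.0115). In the growth hormone arm, which drives Igf1 in liver, 1 of 6 tested genes was called, near the share of 19.6% of all tested genes. It was the feedback inhibitor Socs2, from 1.17 ± 0.12 to 2.32 ± 0.32 (0.61, limma, adjusted p = 0.00633). Among other genes that encode an IGFBP-type domain, 5 of 9 tested were called higher (limma), against 10.4% of all tested genes. They were Ccn2 (239 to 792, log2 fold change 1.72), Ccn3 (0.487 to 2.10, 1.05), Esm1 (0.293 to 1.6, 1.01), Ccn1 and Ccn5, the last 2 by less than 1. Ccn3 and Esm1 passed the filter only through the knockout libraries, so the count is a description and not a test of the list. Htra3, of the same list and named after its values were seen, was below the filter, at 0.96 in WT and 0.497 in knockout libraries.

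**Figure D5:**
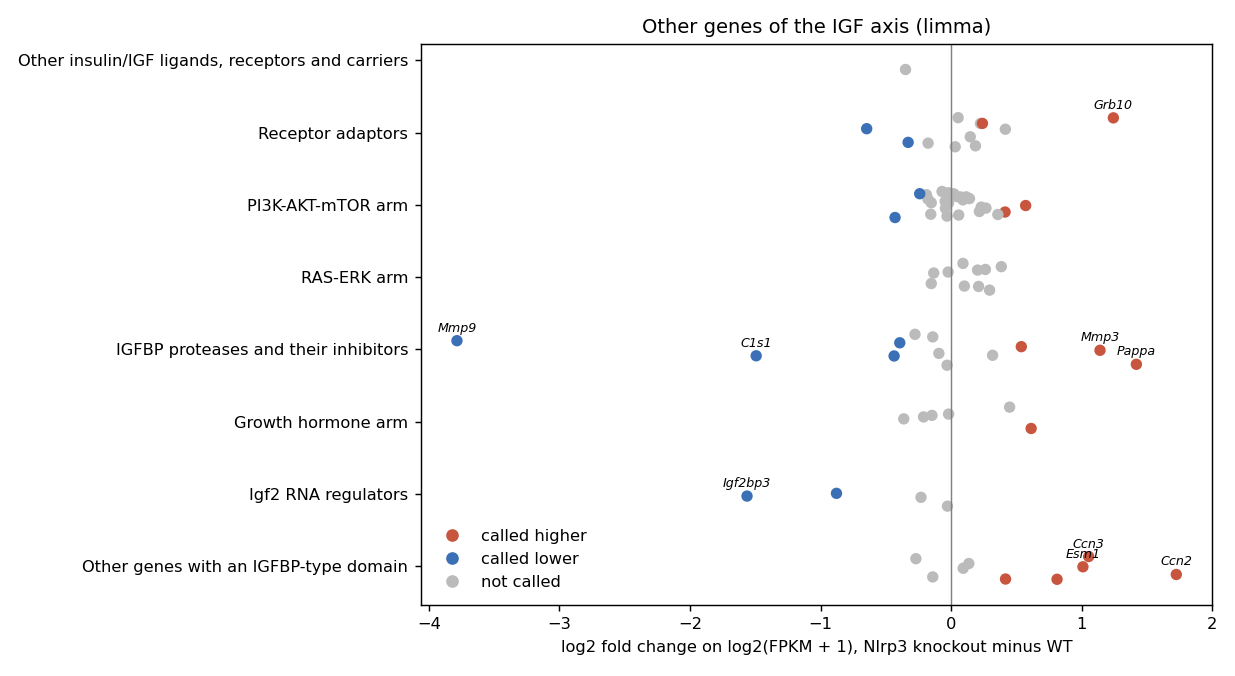
Log2 fold changes (limma, knockout minus WT on log2(FPKM + 1)) of the tested genes of 8 lists of the IGF axis, 1 point per gene, with called genes in red (higher) or blue (lower), grey for genes not called, and names for called genes with a change of at least 1. Genes of the PI3K-AKT-mTOR and RAS-ERK arms all lie within 1 of 0, and Mmp9 at -3.78 and Ccn2 at 1.72 lie farthest out.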

How the data were processed

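Polyadenylated RNA from LPS-treated cells was sequenced in paired reads as 3 WT and 3 Nlrp3 knockout libraries, with dUTP marking of the second strand per the labels' protocols. The submitters' processing notes name cutadapt 1.9, HISAT2 2.0.4, StringTie 1.3.4d and the build GRCm38. How reads were counted, with which annotation release and whether by strand, is not given in the sources used here. Values of overlapping genes are therefore uncertain. In 1 table the authors deposited FPKM values with 2 decimals and estimated counts per gene, per the file headers. The deposited counts are whole numbers but behave as estimates: 44.4% of those up to 16 were multiples of 4, which was read as 4 counts per fragment, and over 5837 genes the ratio of count to FPKM, taken relative to that of the same gene in WT replicate 1, lay within 1% of 1 factor per library. Member coordinates in the table equal those of GENCODE M21.

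The FPKM values were tested with limma 3.58.1 in R 4.3.3 (pseudocount 1, intensity trend, genotype as the only term, two-sided, threshold 0.05), and the estimated counts with edgeR 4.0.16 (quasi-likelihood, TMM) and DESeq2 1.42.0 as alternatives. The fits were tested on simulated data. Further alternatives were a pseudocount of 0.1, no filter, a filter at 5 FPKM, centring on library medians, a replicate block, each library left out in turn, edgeR without a filter, and CPM for the binding protein shares. Day numbers in the titles (1 to 3 within a genotype) conflict with a second label that has 1 throughout, and were used to name replicates and, in 1 alternative, as the block. Named genes were the members, called list genes with a log2 change of at least 1 or otherwise up to 3 per list, the 3 genes most alike to the highest and lowest member, neighbours, and the 2 most abundant markers of each list. Members, lists and the naming rule were chosen with earlier results of these data known. Promoter windows of all 10 members were matched in RefSeq.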

Additional observations from a re-analysis of the deposited data

How the results depend on the processing

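No result reversed its direction under any alternative that was run. Calls of Igfbp2, Igfbp3, Igfbp5 and Igfbp6 held under all 14 alternatives each, with adjusted p-values of at most 0.0447, 0.000403, 0.000609 and 0.00292, and Igf1r passed under none (0.248 to 0.645). Igf1, not called by limma, passed in DESeq2 (log2 fold change 0.65), and with 1 library left out its change lay between 0.28 and 0.50. With 1 library left out, the change lay between -0.61 and -0.44 for Igf2r, between -2.10 and -1.43 for Igfbp4 and between -0.48 and -0.36 for Igfbp7, whose calls were lost in 3, 5 and 4 of 6 cases. Igfbp7 also missed without a filter on low values (-0.43, adjusted p = 0.0740). The cause was not tested, beyond the smaller number of libraries. With 1 library left out, the count of genes called lower ran from 721 (without WT replicate 1) to 1314 and that called higher from 868 to 1685 (without knockout replicate 3), against 1117 and 1264 with all libraries; a filter at 5 FPKM tested fewer genes and called 817 higher. On the estimated counts edgeR called 1483 higher and 1419 lower, and DESeq2 1807 and 1675. Among the 98 genes of the IGF lists, 8 were called higher under that filter, and 6 to 11 were called lower with 1 library left out (6 without WT replicate 2 or 3). The ratio of summed binding protein levels stayed between 0.630 and 0.703 with 1 library left out. On CPM, which weigh long transcripts more, the share of Igfbp7 in the binding protein sum was 53.5% in WT and 62.2% in knockout libraries, and that of Igfbp2 5.56% and 13.5%. With the replicate number as a block, 1106 genes were called higher and 980 lower and no call of a member changed. Deviations of same-numbered libraries correlated at 0.02, 0.17 and 0.10. WT replicate 1 correlated best with knockout replicate 3 (0.08), whereas WT replicates 2 and 3 each correlated best with the knockout library of the same number. All of these correlations were weak, so they do not settle whether the samples were paired. The main fit did not use the numbers. Depth limits Igf2 and Gm49394 most, with 78 counts over both rows in the WT group.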
